A study of Mus musculus with 8 samples.

Results

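The 9 genes described here carry out heme synthesis: Alas1, Alas2, Alad, Uros, Urod, Cpox, Ppox and Fech encode enzymes of the pathway, and Slc25a38 encodes the carrier that brings glycine into the mitochondrion for its first step. They were chosen by name as genes of the pathway, with earlier results of these data known. All 9 were among the 11364 genes of each deposited table of newly made RNA. In the deposited ChIP-seq table, 10 of 5551 consensus binding sites had 1 of these genes as the closest transcription start site (TSS), and the sites belonged to 6 of the 9 genes. With wild type KLF1, labelled RNA of Slc25a38, Alas2 and Alad was called higher, at 6.08-fold to 15.9-fold, where 4.96% of all genes were. With the E339K mutant only Alad passed the same test among the 9 genes, at 4.18-fold, where 2.15% of all genes were called higher. Alas2 and Slc25a38 stood at 2.97-fold and 1.63-fold with the mutant. The difference between the lines was called for Slc25a38 and Alad, at -1.90 and -1.92 on the log2 scale. That of Alas2, at -2.03, was the widest of the 9 genes but missed the threshold. Both calls were lost where the common K1 libraries were assumed to carry a smaller share of the variance.

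Heme is made from glycine and succinyl-CoA by a chain of enzymes that starts in the mitochondrion, moves to the cytosol and ends in the mitochondrion again, where iron is inserted into the porphyrin ring. Red cell precursors need it in large amounts for hemoglobin, and they use the erythroid enzyme ALAS2 for the first, rate-limiting step, whereas other cells use ALAS1. ALAD and the later enzymes build and trim the ring, coproporphyrinogen oxidase and protoporphyrinogen oxidase oxidise it, and ferrochelatase adds the iron. KLF1 is a zinc finger transcription factor that activates many genes of red cell precursors through a G-rich DNA motif.

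The series compares wild type KLF1 with KLF1-E339K, a mouse model of the glutamate to lysine change of congenital dyserythropoietic anemia type IV. All cells derive from K1, an immortalised erythroid line made from Klf1-/- mouse fetal liver, so that every group shares the loss of endogenous KLF1. K1-ER and K1-E339K-ER cells carry a retroviral transgene for wild type or mutant KLF1 joined to an estrogen receptor domain, which moves to the nucleus when 4-hydroxytamoxifen (4-OHT) is given, and K1 cells carry none. The labels list 3 RNA libraries for K1 and 3 for K1-E339K-ER, the latter from 3 clones, all made from RNA that had taken up 500 µM 4-thiouridine (4sU) over 30 min; the dose and time in the study's methods text differ from these label values. The 3 mutant libraries and 2 of the K1 libraries had 200 nM 4-OHT, and 1 K1 library had ethanol in its place. For ChIP-seq, 1 KLF1-E339K-ER library and 1 input library came from a single K1-E339K-ER clone at 3 h of 200 nM 4-OHT. The K1-ER RNA and the KLF1-ER ChIP libraries come from earlier work of the same authors, and their treatment and number were not analysed here. Wherever mutant and wild type are compared, protein, cell line and experiment therefore cannot be told apart.

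The deposited gene tables hold 1 limma-voom fit with 2 comparisons, in which either K1-ER or K1-E339K-ER is set against the same K1 libraries. Each value is therefore a fitted log2 fold change with an error rebuilt from its test, values per library and the spread between them could not be given, and the depth is unknown. A gene was called higher or lower where the treat test, which asks whether a log2 fold change exceeds 1 in size, gave a Benjamini-Hochberg adjusted p under 0.05 over all genes. The difference between both fold changes, mutant minus wild type, was tested the same way over 11349 genes with an error in both tables. In the site table, concentration is the log2 of the mean normalized read count of a site, and a site favoured a protein where the DiffBind adjusted p over all sites was under 0.05.

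In a first check of the labels, Klf1, whose reads include the transgene, was higher than in K1 in both lines, with a log2 fold change of 5.12 ± 0.62 (SE) in K1-E339K-ER and 6.01 ± 0.64 in K1-ER. The treat adjusted p was 0.000604 and 4.56e-05, and the difference between the lines was -0.89 with a 95% interval of -2.23 to 0.46. Of 12 erythroid markers, 11 were in the tables (all but Hbb-b2), with a median mean expression of 7.06 log2 CPM (counts scaled to library size by voom). Of 15 markers of other fetal liver cells, 6 were in the tables, with a median of 2.76 log2 CPM. Kit stood at 6.95, near the erythroid median, Itga2b at 5.30 and Adgre1 at 3.69. Mpo, Elane and Cd68 stood at 1.84, 0.77 and 0.24. The hepatocyte markers Alb, Afp, Ttr and Apoa1 and the B cell marker Cd79a were not among the tabulated genes. Csf1r, Vcam1, Pf4 and Cpa3 were not either. Nfe2, an erythroid transcription factor gene, was called higher in both lines, and Epor, Hbb-b1 and Ermap in K1-ER. So 4 of the 11 erythroid markers were called higher in K1-ER, where 4.96% of all genes were. In K1-E339K-ER 1 of the 11 was, where 2.15% of all genes were. Mutant minus wild type, 1 of the 11 was called lower by the treat test, where 2.20% of all genes were. This was Epor, the erythropoietin receptor gene, at -1.96 with a treat adjusted p of 0.0266. Its size was like those of the heme synthesis genes called below. No marker of another cell type was called. The part of these marker changes in the results on heme genes was not tested, and in bulk RNA a changed share of cells and changed RNA per cell cannot be told apart.

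The sequences below come from all the sites where the proteins differed at Slc25a38, Alas2, Alad and Uros, and from the Cpox site, which favoured neither. Each is the 101-base window centred on the site midpoint, read from the plus strand of the NCBIM37 (mm9) mouse assembly, and capitals mark every match to either form of the KLF1 motif. The letters come from the study's motifs, which differ at position 5. The pyrimidine form was searched as NGGGCGGGG, NGGGCGTGG, NGGGTGGGG or NGGGTGTGG, and the purine form as NGGGAGGGG, NGGGAGTGG, NGGGGGGGG or NGGGGGTGG. Both strands were searched, so that a match on the minus strand appears below as C-rich letters, and matches of both forms could overlap by shifted positions.
Slc25a38 intron 1, 435 bp downstream of the TSS, chr9:120019902-120020002: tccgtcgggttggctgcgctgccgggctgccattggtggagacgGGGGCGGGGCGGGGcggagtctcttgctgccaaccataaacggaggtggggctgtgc
Slc25a38 intron 1, 4346 bp downstream, chr9:120023813-120023913: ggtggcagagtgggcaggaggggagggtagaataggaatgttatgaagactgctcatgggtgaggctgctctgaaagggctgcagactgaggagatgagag
Slc25a38 intron 1, 6063.5 bp downstream, chr9:120025530-120025630: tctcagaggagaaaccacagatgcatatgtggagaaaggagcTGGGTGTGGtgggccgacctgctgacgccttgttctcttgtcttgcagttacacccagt
Alas2 intron 1, 2379.5 bp downstream, chrX:146984289-146984389: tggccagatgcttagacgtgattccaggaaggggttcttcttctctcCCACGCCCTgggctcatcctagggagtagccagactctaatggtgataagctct
Alad intron 1, 3110 bp downstream, chr4:62177783-62177883: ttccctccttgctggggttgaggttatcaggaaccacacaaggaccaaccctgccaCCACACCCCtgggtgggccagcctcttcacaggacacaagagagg
Cpox, intergenic, 8181.5 bp upstream, chr16:58662089-58662189: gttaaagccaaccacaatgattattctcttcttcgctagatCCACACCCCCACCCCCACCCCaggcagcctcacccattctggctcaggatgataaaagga
Uros intron 6, 13839.5 bp downstream, chr7:140887088-140887188: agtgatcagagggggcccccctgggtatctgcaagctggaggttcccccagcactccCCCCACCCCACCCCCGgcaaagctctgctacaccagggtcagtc
The windows at 435 bp and 6063.5 bp of Slc25a38 and those of Alas2 and Alad hold the pyrimidine form and no purine form, the window at 4346 bp holds neither, whereas those of Cpox and Uros hold both, overlapping on the minus strand. In the Alas2 window the match AGGGCGTGG on the minus strand is centred 1 base from the site midpoint, and the Alad match GGGGTGTGG lies 10 bases from it.

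Slc25a38 (chr9:120019492-120033622, plus strand) feeds glycine to the first enzyme. Its log2 fold change was 2.60 ± 0.21 in K1-ER, a 6.08-fold rise with a 95% interval of 4.45 to 8.31, and 0.70 ± 0.20 in K1-E339K-ER, 1.63-fold with an interval of 1.20 to 2.20. The K1-ER value passed the treat test with an adjusted p of 5.72e-05, and the K1-E339K-ER value did not, with an adjusted p of 1. The difference was -1.90 on the log2 scale, from -2.34 to -1.46, so the gene was 3.73-fold higher in K1-ER. This difference passed the treat test with an adjusted p of 0.0127. It no longer passed where the shared K1 variance was assumed smaller, with an adjusted p of 0.0659 at a variance factor of 0.75 and 0.177 at a factor of 1. It was also lost with the other standard error that the p-value of the K1-E339K-ER comparison allows, with an adjusted p of 1. This other error was 6.49, where 0.20 was used and 0.21 held for the gene in K1-ER. The median error of all genes in K1-E339K-ER was 0.26.

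Slc25a38 also held 4 of the 10 sites, all within intron 1 and within 6063.5 bp of the TSS. At the first, 435 bp downstream, the concentration was 5.12 with KLF1-ER and 2.47 with KLF1-E339K-ER, a difference of 2.65 with a DiffBind adjusted p of 1.57e-06. At 4346 bp downstream, the concentrations were 4.86 and 2.30 and the adjusted p was 2.41e-06. At 5293.5 bp downstream, both proteins were at a like level, 6.57 against 6.46, and the adjusted p was 0.59. The last, 6063.5 bp downstream, had the widest difference in favour of KLF1-ER among the 10 sites, 5.89 against 0.66, with an adjusted p of 7.50e-11. So 3 of the sites of this gene favoured the wild type protein and 1 site, with the highest concentration of both proteins among the 10 sites, favoured neither. The windows of the 4346 bp and 5293.5 bp sites held no match, but elsewhere in its 509 bases the first of these sites held 2 matches of the pyrimidine form, and the other held 1 of the pyrimidine form and 1 of the purine form in its 500 bases.

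Alas1 and Alas2 encode the housekeeping and the erythroid form of 5-aminolevulinate synthase. Alas1 (chr9:106135786-106150457, minus strand) had log2 fold changes of 0.09 ± 0.23 in K1-ER and 0.07 ± 0.20 in K1-E339K-ER, neither called, and a difference of -0.03 with an interval of -0.49 to 0.44. It had no consensus site of its own and none within 100 kb of its TSS.

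Alas2 (chrX:146981918-147005181, plus strand) had a log2 fold change of 3.61 ± 0.32 in K1-ER, which is 12.2-fold with an interval of 7.58 to 19.5, and passed with a treat adjusted p of 3.25e-05. In K1-E339K-ER it was 1.57 ± 0.32, 2.97-fold with an interval of 1.85 to 4.77. The treat test, which asks for more than a log2 fold change of 1, gave a p of 0.0472. After adjustment over all genes this was 0.974. The difference was -2.03, from -2.72 to -1.35, the widest of the 9 genes. The gene was 4.10-fold higher in K1-ER, from 2.55 to 6.57. By the treat test the adjusted p of this difference, 0.0645, missed the threshold. At its site in intron 1 the concentration was 5.02 with KLF1-ER and 3.94 with KLF1-E339K-ER, 2.11 times the normalized reads, with a DiffBind adjusted p of 0.0140. In the GENCODE M1 annotation Apex2, an antisense gene, spans the whole of Alas2, and the strand used in counting is not given in the sources used here, so that reads of these genes may not be separable. Apex2 itself had log2 fold changes of 0.44 in K1-ER and 0.29 in K1-E339K-ER.

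Alad (chr4:62170203-62180952, minus strand) joins pairs of aminolevulinate molecules into porphobilinogen. It had the highest log2 fold change of the 9 genes in both lines, 3.99 ± 0.25 in K1-ER, or 15.9-fold from 10.9 to 23.0, and 2.06 ± 0.25 in K1-E339K-ER, or 4.18-fold from 2.91 to 6.01. Both passed the treat test, with adjusted p of 1.14e-06 and 0.0154. By this value it ranked at place 212 of the 11364 genes in K1-ER and at place 385 in K1-E339K-ER. The difference of -1.92, from -2.45 to -1.39, passed the treat test with an adjusted p of 0.0324. The gene was 3.79-fold higher in K1-ER. As for Slc25a38, this call was lost at a variance factor of 0.75, with an adjusted p of 0.133, and at a factor of 1, with 0.307. The site in its intron 1 was occupied by both proteins, at 6.39 with KLF1-ER and 5.24 with KLF1-E339K-ER, and the difference of 1.15 had a DiffBind adjusted p of 1.95e-05.

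**Figure D1:**
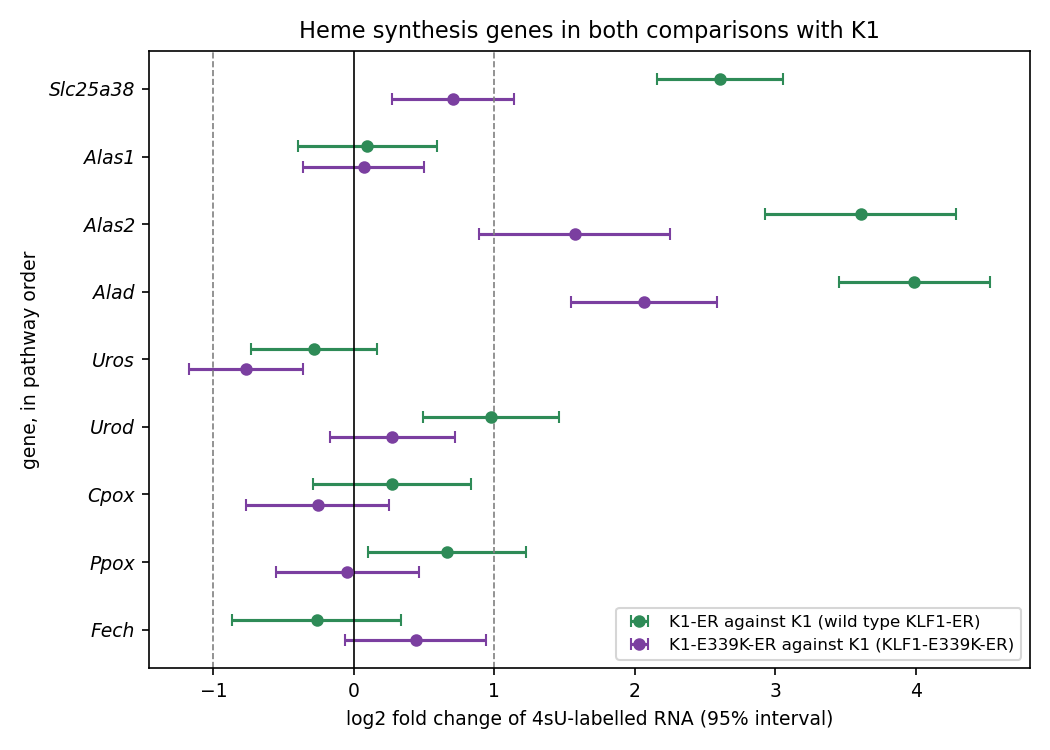
Log2 fold change of 4sU-labelled RNA against K1 for the 9 genes in pathway order, green for K1-ER and purple for K1-E339K-ER, with bars for the 95% interval and dashed lines at a log2 fold change of 1 in size. The green points of Slc25a38, Alas2 and Alad lie at 2.60, 3.61 and 3.99, to the right of their purple points at 0.70, 1.57 and 2.06.

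The enzymes of the middle of the pathway close the ring and trim its side chains. Uros (chr7:140877926-140901755, minus strand), uroporphyrinogen III synthase, had log2 fold changes of -0.28 ± 0.21 in K1-ER and -0.77 ± 0.19 in K1-E339K-ER, the lowest of the 9 genes in both lines, and neither was called. Its difference was -0.48, from -0.91 to -0.06. Uros had 1 site, in intron 6, which stood at the lowest wild type concentration in the table, -0.09, and at 5.18 with KLF1-E339K-ER. The difference of -5.27 favoured the mutant with a DiffBind adjusted p of 1.85e-06. This lowest value is shared by 1424 of the 5551 sites, so the size of the difference depends on where that minimum was set.

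Urod (chr4:116662570-116667018, minus strand), uroporphyrinogen decarboxylase, stood at 0.98 ± 0.23 in K1-ER and 0.27 ± 0.21 in K1-E339K-ER. Neither value was called, and the difference was -0.70 with an interval of -1.17 to -0.24. The p-value of Urod in K1-ER also allowed a standard error of 0.97, where 0.23 was used. Cpox (chr16:58670321-58680504, plus strand), coproporphyrinogen oxidase, stood at 0.27 ± 0.26 in K1-ER and -0.26 ± 0.24 in K1-E339K-ER, with a difference of -0.53 from -1.07 to 0.00. Both values of Cpox had intervals that include 0. The Cpox site upstream of the gene had a concentration of 5.20 with KLF1-ER and 4.43 with KLF1-E339K-ER, and the adjusted p of 0.0608 favoured neither protein. Urod had no site of its own, and 1 site within 100 kb of its TSS, closest to Eif2b3, favoured the mutant by 2.30 in log2 concentration.

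The last steps oxidise the ring and add iron. Ppox (chr1:173206121-173211317, minus strand), protoporphyrinogen oxidase, had log2 fold changes of 0.66 ± 0.26 in K1-ER and -0.05 ± 0.24 in K1-E339K-ER, with a difference of -0.71 from -1.24 to -0.17, and none of the 3 was called. No site had Ppox as its closest TSS. Within 100 kb of the Ppox TSS lay 4 sites, assigned to Dedd, Tomm40l and Usp21, and all 4 favoured the mutant, with a mutant concentration of 5.32 to 7.27 against 0.50 to 3.77 for the wild type.

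Fech (minus strand of chromosome 18), ferrochelatase, was the 1 gene of the 9 with a difference above 0. Its log2 fold change was -0.27 ± 0.28 in K1-ER and 0.44 ± 0.24 in K1-E339K-ER, and the difference of 0.70, from 0.15 to 1.26, was not called. It had 2 sites and both favoured KLF1-E339K-ER. The site 1266.5 bp upstream of the TSS was at the wild type minimum of -0.09 and at 5.16 with the mutant, with a DiffBind adjusted p of 2.34e-06, and the site 3333 bp downstream, in an intron, was at 2.08 against 5.09, with an adjusted p of 7.27e-07.

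**Figure D2:**
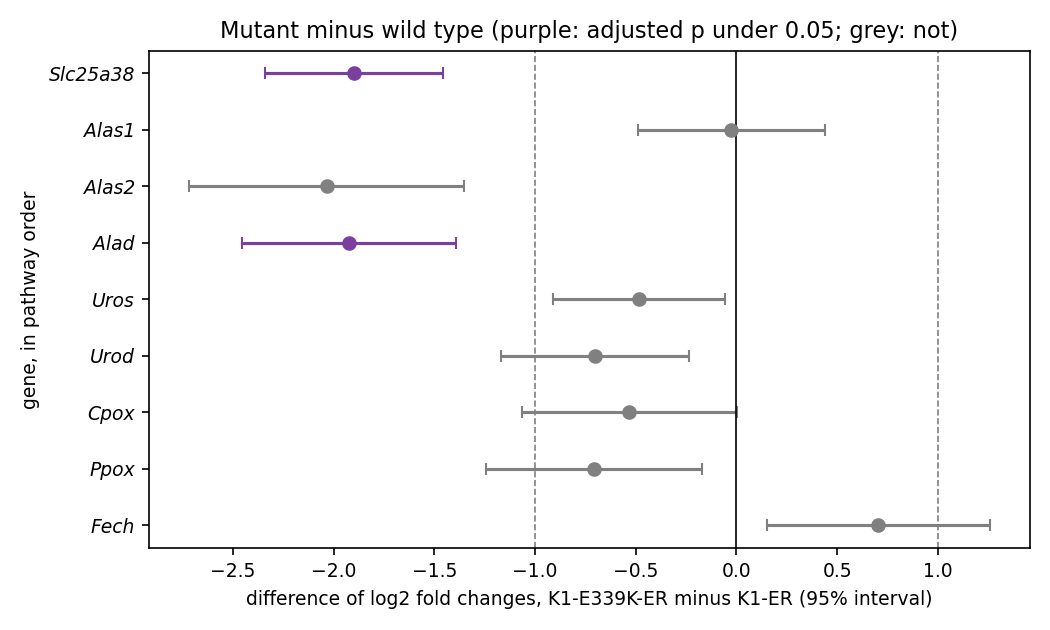
Difference of the log2 fold changes, K1-E339K-ER minus K1-ER, for the 9 genes with 95% intervals, purple where the adjusted p was under 0.05. Slc25a38 at -1.90 and Alad at -1.92 are purple, Alas2 at -2.03 is grey with a wider interval, and Fech at 0.70 is the 1 point to the right of 0.

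Over the 9 genes, K1-ER against K1 gave 3 calls, all higher, where 4.96% of all genes were called higher and 1.06% lower. K1-E339K-ER against K1 gave 1 call, higher, where 2.15% of all genes were called higher and 0.167% lower. The difference gave 2 calls, both lower in the mutant, where 2.20% of all genes were called lower and 1.63% higher. Across the 9 genes, the median log2 fold change was 0.66 in K1-ER and 0.27 in K1-E339K-ER, and the median difference was -0.70, while the medians of all genes were -0.05, -0.03 and 0.01. The differences of Slc25a38, Alas2 and Alad lay between -2.03 and -1.90, and those of the 6 uncalled genes of the K1-ER comparison lay between -0.71 and 0.70. This split follows the K1-ER fold change, which is itself part of the difference. The gap between these 2 sets of genes is therefore partly set by how they were split.

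**Figure D3:**
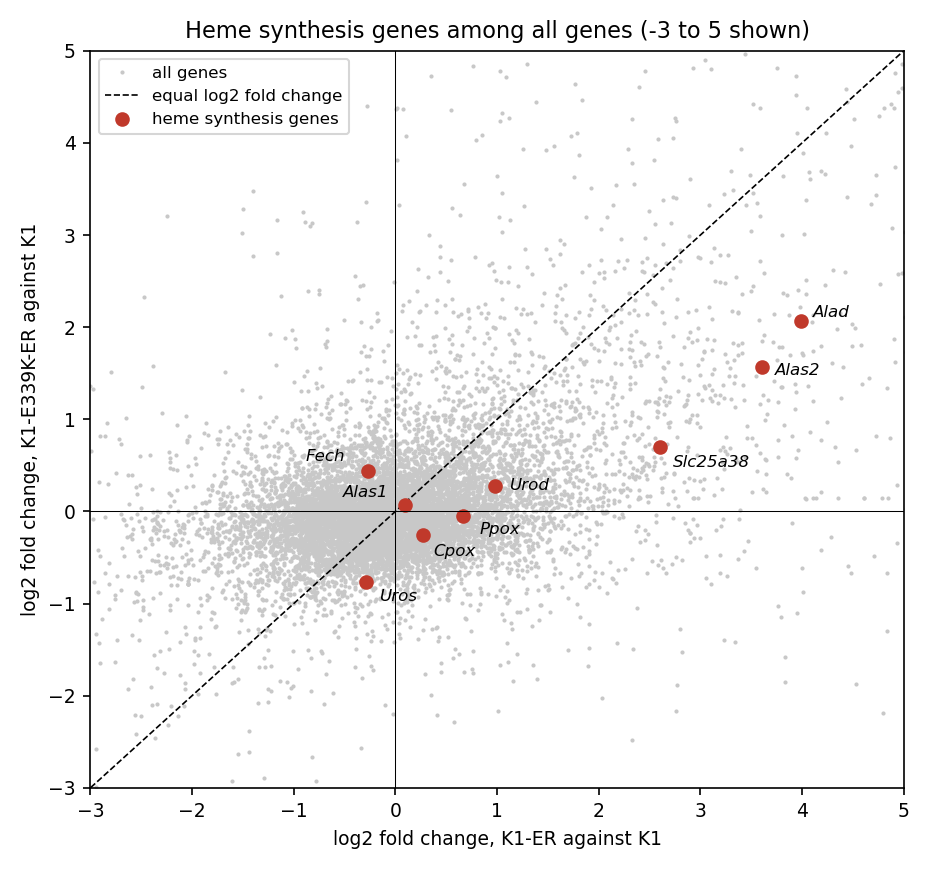
Log2 fold change in K1-E339K-ER (vertical) against that in K1-ER (horizontal) for all genes in grey and the 9 heme synthesis genes in red, with the dashed line of equal change. Both axes share the K1 libraries, and Slc25a38, Alas2 and Alad lie below the line, at 2.60 to 3.99 on the horizontal and 0.70 to 2.06 on the vertical axis.

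Levels of the 9 genes could be compared as mean log2 CPM less the log2 of the length in kb, averaged over all libraries of the fit and without an error, so that it cannot be said which neighbours in this order differ. The lengths in the tables lay between 80.7% and 131% of the genomic span of each gene. Urod stood highest at 4.31, followed by Slc25a38 at 3.58, Ppox at 3.49, Cpox at 3.20, Uros at 3.06, Alad at 2.84 and Fech at 2.67. Both aminolevulinate synthase genes stood lowest on this scale, Alas1 at 1.58 and Alas2 at 0.75. The median of the unscaled mean expression was 6.55 log2 CPM over the 9 genes, and Alas2 was the lowest at 5.29, against a median of 5.27 over all genes. Opposite strands of Bccip and Uros overlap by 740 bases, of B4galt3 and Ppox by 907 bases and of a non-coding gene and Alas1 by 167 bases, which touches at most 17.5% of each of these 3 genes.

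By the pair of log2 fold changes, in K1-E339K-ER and K1-ER, the genes nearest to Alas2 among 9704 genes of at least 2 mean log2 CPM were Hmha1, Apobec3 and Kcnj4. Hmha1 had 1.47 ± 0.27 in the mutant and 3.54 ± 0.27 in the wild type line, at a distance of 0.12 from Alas2. Apobec3 had 1.65 ± 0.68 and 3.75 ± 0.64, at 0.17, and Kcnj4 had 1.78 ± 0.80 and 3.78 ± 0.75, at 0.27. This likeness rests on 2 values a gene that share the K1 libraries.

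Among the 10 sites, 5 favoured KLF1-ER, 3 favoured KLF1-E339K-ER and 2 favoured neither. In the whole table, 30.2% of sites favoured KLF1-ER and 63.0% favoured KLF1-E339K-ER. The median difference, wild type minus mutant, was 0.93 over the 10 sites and -2.60 over all sites. The 5 sites that favoured KLF1-ER belonged to Slc25a38, Alas2 and Alad, which were also the 3 genes called higher in K1-ER, and the 3 that favoured the mutant belonged to Uros and Fech, neither of which was called in any comparison. Alas1, Urod and Ppox had no site. Beside the single ChIP library that the labels give for the mutant, the number of libraries behind the DiffBind test is not given in the sources used here, and p-values may measure technical spread alone.

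**Figure D4:**
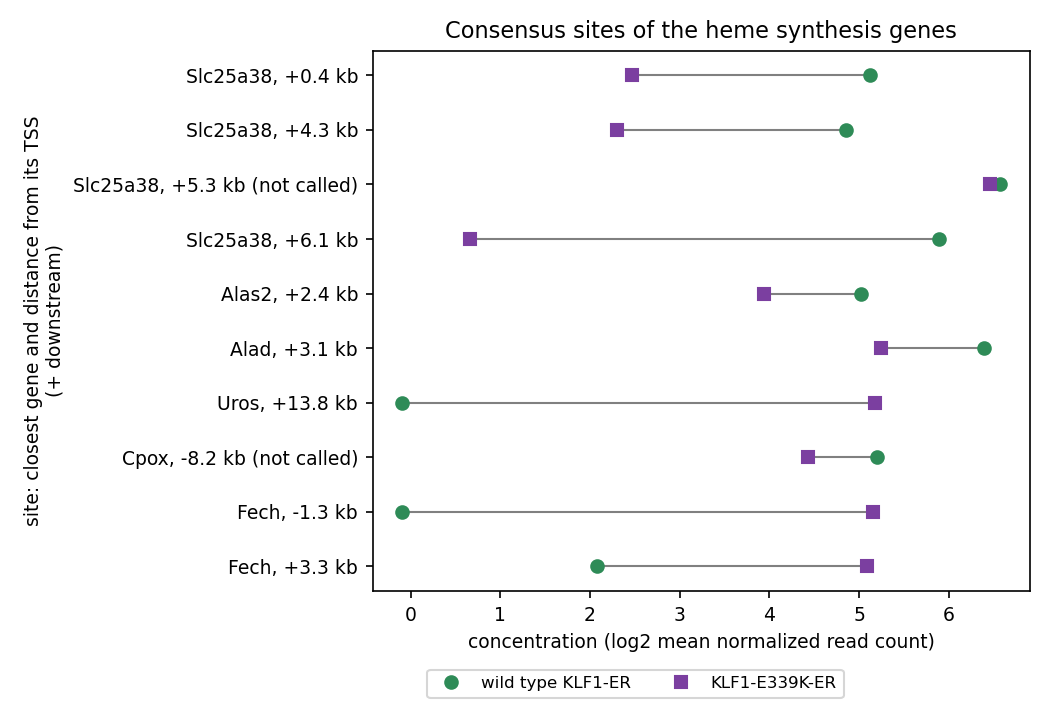
Concentration of wild type KLF1-ER (green circles) and KLF1-E339K-ER (purple squares) at the 10 sites of the heme synthesis genes, each row named by the closest gene and the distance from its TSS, on a log2 scale. The 5 sites called for KLF1-ER lie at Slc25a38, Alas2 and Alad, and at the sites of Uros and Fech the purple square is to the right.

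In the 101-base windows referred to above, 7 of the 10 sites held the pyrimidine form of the motif and 3 held the purine form. Over all 5551 sites the shares were 35.3% and 35.5%. Sites that favoured KLF1-ER held the pyrimidine form in 60.0% and the purine form in 16.3% of cases, whereas sites that favoured the mutant held them in 23.0% and 45.5%. Over whole sites, all 10 held the pyrimidine form and 5 the purine form, against 58.6% and 58.4% of all sites. The mutant-favoured Uros site held 2 matches of the pyrimidine form, both GGGGTGGGG on the minus strand, and 1 overlapping match of the purine form, CGGGGGTGG.

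RefSeq promoters (GRCm38.p6, 250 bases before to 50 bases after a start) were at hand for 8 of the 9 genes, as 11 promoters. The pyrimidine form was found in 6 of these 11, at Alas1, Alas2, Alad, Urod and Ppox, and in 29.7% of all 32851 promoters. The purine form was found in 2 of 11, at Slc25a38 and Alas2, and in 22.6% of all. None of the 10 sites was centred in such a window by the distances of the site table, the nearest being the Slc25a38 site at 435 bp.

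Other genes of heme supply, transport and breakdown were described as a fixed list of 35, of which 33 were in the tables. In K1-ER, 3 of 33 were called higher and none lower, where 4.96% of all genes were called higher and 1.06% lower. These were Abcb10, a mitochondrial inner membrane transporter, at 2.69 ± 0.15, Slc6a9, a plasma membrane glycine transporter, at 2.01 ± 0.17, and Tspo, an outer mitochondrial membrane protein that binds porphyrins, at 5.16 ± 0.46. In K1-E339K-ER the same 3 genes stood at 1.19 ± 0.14, 0.67 ± 0.16 and 1.14 ± 0.51 and none of them was called. The 1 call of the 33 in the mutant line was lower, Slc48a1, a heme transporter of lysosomes, at -4.66 ± 0.84, a gene of low mean expression at 0.79 log2 CPM, where 0.167% of all genes were called lower and 2.15% higher.

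The difference between the lines was called for 3 of the 33 genes, all lower in the mutant, where 2.20% of all genes were called lower: Abcb10 at -1.50, Tspo at -4.01 and Slc48a1 at -4.79. The call of Abcb10, with a treat adjusted p of 0.0491, was lost at a variance factor of 0.75. Only Tspo of the 3 was still called at a factor of 1, and none was with a minimum of 2 or with Holm's adjustment. Among genes of at least 4 mean log2 CPM Abcb10 was not called. That filter left out Tspo and Slc48a1, at 3.71 and 0.79 log2 CPM, so they were not tested under it. Slc6a9 at -1.35, from -1.70 to -0.996, was not called. Glrx5, an iron-sulfur cluster enzyme, at -1.60, and Slc25a37, the mitochondrial iron importer, at -1.05, were not called either. The median over the 33 genes was 0.41 in K1-ER, 0.06 in K1-E339K-ER and -0.40 for the difference.

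**Figure D5:**
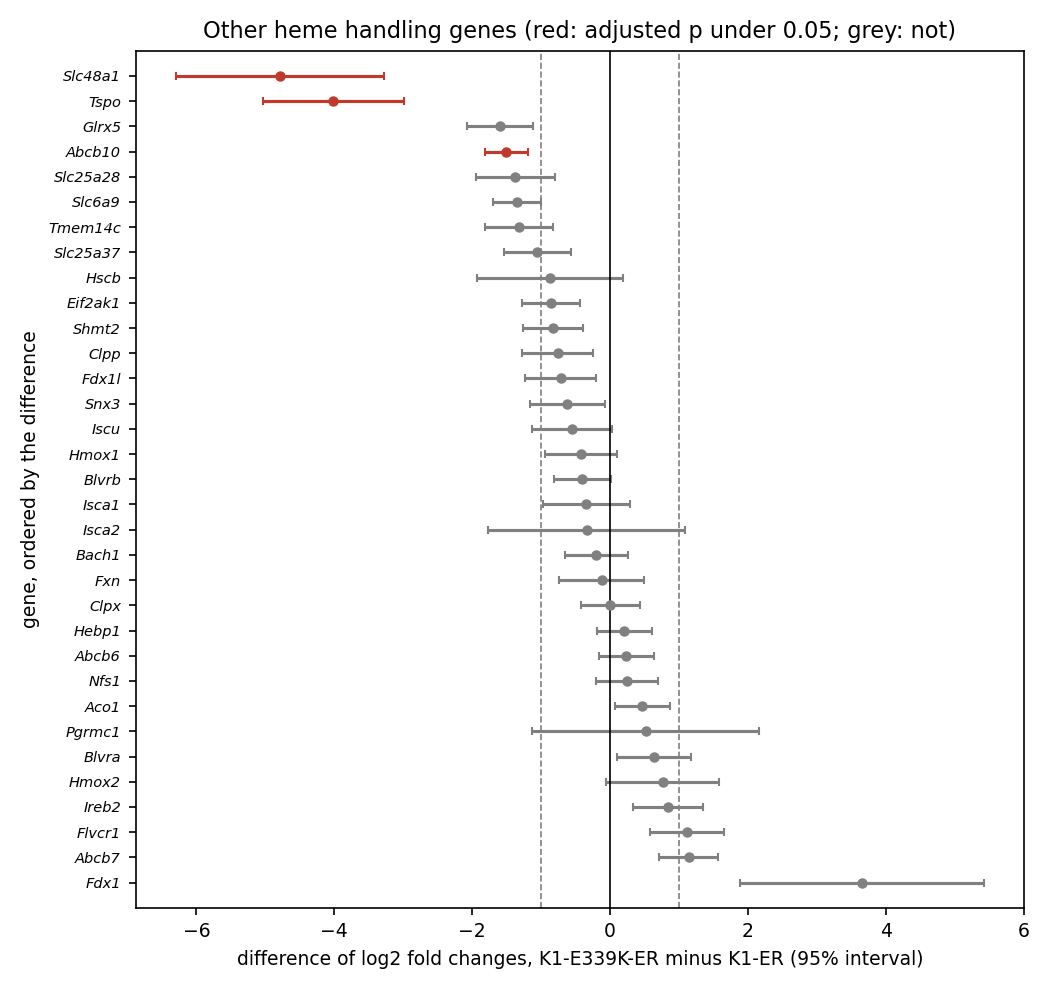
Difference of the log2 fold changes, K1-E339K-ER minus K1-ER, for the 33 other heme handling genes with 95% intervals, ordered by the difference and red where the adjusted p was under 0.05. The 3 red genes are Slc48a1 at -4.79, Tspo at -4.01 and Abcb10 at -1.50.

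Of these 33 genes, 12 had 21 sites in all, of which 8 favoured KLF1-ER, 11 favoured KLF1-E339K-ER and 2 favoured neither, where 30.2% and 63.0% of all sites favoured the one and the other. The 3 genes called higher in K1-ER each had at least 1 site that favoured the wild type protein. At Tspo the single site was at 7.06 with KLF1-ER and 4.08 with KLF1-E339K-ER. Abcb10 had 3 sites and Slc6a9 had 4, and in both genes some favoured the wild type protein and others the mutant. Glrx5 had 1 site, at 4.55 with KLF1-ER and at the lowest mutant value of -0.38 with KLF1-E339K-ER, and log2 fold changes of 1.28 ± 0.23 in K1-ER and -0.32 ± 0.22 in K1-E339K-ER, neither called. At Slc25a37 both sites favoured the mutant, at 5.93 and 4.60 against 0.50 and 0.91. Blvrb, a biliverdin reductase gene of heme breakdown, stood at 1.55 ± 0.20 in K1-ER and 1.15 ± 0.18 in K1-E339K-ER, neither called, and had 1 site in favour of the wild type protein and 2 in favour of the mutant. The remaining genes with a site, Bach1, Blvra, Fdx1l, Hebp1, Isca1 and Shmt2, had log2 fold changes between -0.94 and 0.87 in K1-ER and between -0.30 and 0.68 in K1-E339K-ER, and none was called.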

How the data were processed

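RNA labelled with 4sU and ChIP DNA were sequenced by the authors on the Ion Proton platform and mapped to mm9, with TopHat2 (2.0.10 per the labels) and TMAP for RNA and TMAP for ChIP. The tool that counted reads per gene is not given in the sources used here. The deposited gene tables hold, per gene, the log2 fold change, the mean log2 CPM of voom, the moderated t score and the treat p-value of the authors' limma-voom fit. The deposited site table holds log2 concentrations, their difference, p-values and FDR of DiffBind on a consensus of MACS2 and GEM peaks, from pooled ChIP samples. These are the authors' own comparisons, and no value per library was at hand.

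From these, p-values were adjusted again over each table (threshold 0.05), which moved no deposited adjusted p of the gene tables by more than 5.10e-06. The test's minimum (1 on the log2 scale) follows from where t becomes 0. The study's text names a minimum log-fold-change of 2. Its counts for the mutant, 244 genes higher and 19 lower, equal those found here with the log2 minimum of 1. The degrees of freedom of the test (15.6) were recovered numerically, and standard errors were solved from t, or from p where t was 0. Such a p can allow 2 errors, and the one nearer to genes of like expression was used. The other error was 6.49 for Slc25a38 and 4.94 for Uros in K1-E339K-ER. In K1-ER it was 0.97 for Urod and 4.62 for Ppox. Intervals of these genes, and their calls without a minimum, rest on this choice. The variance of mutant minus wild type was set to 0.5 of the summed variances of both fold changes, since these share K1. This factor assumes that the K1 libraries carry an equal share of both variances. A factor of 1 treats both fold changes as independent, as if they shared no K1 libraries, and factors under 0.5 were not tried. For 15 genes no error could be solved in one table or both. The calculation was tested on simulated data. These were drawn with the same factor of 0.5 and with known degrees of freedom, so the simulation could not check either of them. Site distances were converted to bases along the gene and place read from GENCODE M1, whose starts differed from those of the site table by at most 777 bases for the 9 genes. Named were the 9 genes, members of the fixed list past a threshold or with a site, the 3 genes nearest to Alas2 and Klf1. The called or missing markers and the markers of other cells were named too. A few entries of the lists are not reported here. Genes and lists were chosen with earlier results of these data known. Alternatives were other minimums, thresholds, adjustments, filters on expression, variance factors and error roots. Python 3.11.15, numpy 2.4.6, scipy 1.17.1 and pandas 2.3.3 were used.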

Additional observations from a re-analysis of the deposited data

Results flagged for a closer look

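The response of 2 of the 9 genes differed between the lines by the test of the difference itself. Mutant minus wild type, the log2 fold changes of Slc25a38 and Alad differed by -1.90 (adjusted p 0.0127) and -1.92 (adjusted p 0.0324) by the rebuilt limma treat test. Both calls were lost when a smaller share of the variance was assigned to the common K1 libraries. That of Slc25a38 was also lost with the other root of its standard error (adjusted p 1), which is 6.49 against the 0.20 used.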

How the results depend on the processing

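The alternatives change tests and not fold changes, so they bear on calls and not on the direction of a gene. For K1-E339K-ER against K1, the count of 1 heme synthesis gene (Alad) became 4 with no minimum fold change (Slc25a38, Alas2 and Alad higher, Uros lower, of 1001 genes called) and 0 with a minimum of 2, with adjusted p under 0.01 or with Holm's adjustment. The count of 3 for K1-ER against K1 ranged from 2 to 4. The count of 2 for the difference became 6 with no minimum (Slc25a38, Alas2, Alad, Urod and Ppox lower, Fech higher, of 3841 called), 1 (Alad) with the other root of the standard error, and 0 with a minimum of 2, adjusted p under 0.01, Holm's adjustment or a variance factor of 0.75 or 1. With no minimum the adjusted p of Alas2 was 0.00399 in K1-E339K-ER and 0.000263 for the difference. A mean of at least 4 log2 CPM kept all 3 counts. The 8 called sites became 13 when any site within 100 kb of a TSS was taken, with 8 in favour of the mutant and 5 of the wild type protein in place of 3 and 5, and stayed between 6 and 8 under the other site settings. Of 162 tests of single genes among the 9 recomputed, 139 stayed on their side of the threshold, 15 lost and 8 gained a call. No paired analysis was possible because the tables hold no value per library, and leaving out a replicate was not run for the same reason. Among the 33 other genes, the 1 call in the mutant line, Slc48a1, was absent under each alternative except no minimum, which gave 6. The filter on expression left this gene out untested. The depth is unknown.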
